A study of Mus musculus with 18 samples.

Results

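The collagen genes of the mouse eye are described here across retina and across retinal pigment epithelium with choroid (RPE/choroid), in wild-type mice and in mice with altered Abca4. Members were all genes of the deposited gene tables whose symbol has the form of a collagen chain gene (Col, a type number, the letter a, a chain number). This gave 43 genes of 22558 in the tables. The rule reads symbols only, though it was chosen with earlier results of these data known. Sorted by the structure of their product, they are 11 fibrillar chains, 9 fibril-associated chains, 6 type IV chains, 6 type VI chains, 4 transmembrane collagens, 3 short chain collagens, 2 multiplexins and 2 others.

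Tissue came from mice 30 days of age on a mixed 129SV and C57BL/6 background. The 3 genotypes were wild type, Abca4-/- (called knockout below) and homozygous for an Abca4 allele carrying L541P;A1038V (called knock-in below). Each genotype gave 3 libraries of retina and 3 of RPE/choroid, 18 in all, from total RNA depleted of ribosomal RNA. Abca4 encodes a transporter of vitamin A compounds in photoreceptor discs. The alleles are germline, so every cell of a mouse carried them, and the labels leave unsaid whether libraries of the same group are from different mice. P-values therefore measure the spread between these libraries, which may be technical.

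Collagens are secreted or membrane-bound proteins whose chains wind into a helix. Fibrillar collagens (types I, II, III, V, XI, XXIV and XXVII) form the fibrils of sclera, choroidal stroma, cartilage and vitreous, and fibril-associated collagens sit on their surface. Type IV chains form the sheet of basement membranes, including the inner limiting membrane of the retina, vessel walls, the lens capsule and the basal laminae of Bruch membrane, the layered matrix between RPE and choroid. Type VIII chains, encoded by Col8a1 and Col8a2, are short chain collagens that assemble into lattices, best known from Descemet membrane of the cornea, and they also occur in Bruch membrane. Type XVIII collagen, of the multiplexin family, is a basement membrane component whose tail is released as endostatin. Type XIX, encoded by Col19a1, is a fibril-associated collagen made by subsets of neurons in brain.

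Promoter sequences are shown for the genes on which the results turn: the Bruch membrane pair Col8a1 and Col8a2, the retina-high Col19a1, and the shorter transcript of Col18a1, whose share differed between the tissues. They are taken from RefSeq on GRCm38.p6 and read 5′ to 3′ on the gene's strand, from the 250 bases before the annotated start with annotated UTR bases left out. Capitals mark matches, on either strand, to GGGCGG (the core of a GC box, which reads CCGCCC on the other strand), ATTGG (the CCAAT box), TATAAA (the TATA box), CACGTG (an E-box) and the photoreceptor homeobox motif TAATCC. Overlapping matches run together. The Col8a1 stretch is chr16:57754738-57754987 on the minus strand.
Col8a1: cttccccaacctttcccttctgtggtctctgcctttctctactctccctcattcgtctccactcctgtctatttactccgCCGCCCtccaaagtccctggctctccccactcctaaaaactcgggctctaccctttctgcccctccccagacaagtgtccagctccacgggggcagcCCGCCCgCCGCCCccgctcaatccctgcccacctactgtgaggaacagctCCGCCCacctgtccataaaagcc
The Col8a2 stretch is chr4:126286544-126286792 on the plus strand.
Col8a2: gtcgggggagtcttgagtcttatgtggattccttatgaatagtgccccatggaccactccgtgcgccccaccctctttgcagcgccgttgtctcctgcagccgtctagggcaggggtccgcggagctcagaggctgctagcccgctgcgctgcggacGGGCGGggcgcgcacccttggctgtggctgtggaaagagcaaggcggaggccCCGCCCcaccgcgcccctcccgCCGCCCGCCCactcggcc
The Col19a1 stretch is chr1:24587473-24587687 on the minus strand.
Col19a1: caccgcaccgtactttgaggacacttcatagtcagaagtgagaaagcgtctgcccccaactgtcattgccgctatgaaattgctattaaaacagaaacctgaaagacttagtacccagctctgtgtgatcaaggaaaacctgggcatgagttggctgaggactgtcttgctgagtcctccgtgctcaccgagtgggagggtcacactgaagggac
The stretch before the shorter Col18a1 transcript is chr10:77166549-77166780 on the minus strand.
Col18a1, shorter transcript: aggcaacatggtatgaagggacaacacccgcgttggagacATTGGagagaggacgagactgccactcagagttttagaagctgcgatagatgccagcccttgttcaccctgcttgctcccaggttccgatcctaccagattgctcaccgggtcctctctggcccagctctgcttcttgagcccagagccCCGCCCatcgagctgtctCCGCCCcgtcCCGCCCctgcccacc
The Col8a2 window had a GC content of 70% and the Col8a1 window 60.8%, against 52% in the Col19a1 window. GGGCGG was found in the windows of Col8a1, Col8a2 and the shorter Col18a1 transcript, and none of the 5 motifs was found in the printed Col19a1 stretch. Of the 43 collagen genes, 35 had an entry, with 38 windows of 250 bases. GGGCGG occurred in 22 of these (57.9%) and in 32.7% of all 32851 windows. TATAAA occurred in 5 of the 38 (13.2%) and in 12.4% of all windows. ATTGG occurred in 13 of the 38 (34.2%) and in 33.9% of all. CACGTG and TAATCC occurred in none of the 38, against 6.02% and 6.25% of all. A match describes letters in the window only.

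Some collagen genes lie beside each other. On mm9, the build of the deposited tables, Col4a1 and Col4a2 are neighbours on chromosome 8 with 2 bases between them, Col4a3 and Col4a4 on chromosome 1 with 71 bases, and Col4a5 and Col4a6 on chromosome X with 1342 bases. Col9a1, on the plus strand, and Col19a1, on the minus strand (chromosome 1, 24264521 to 24594276), end 4944 bases from each other. Their starts lie on the outer sides. Col8a1 is at chromosome 16, 57624368 to 57754850, Col8a2 at chromosome 4, 125964037 to 125991574, and Col18a1 at chromosome 10, 76514923 to 76629275.

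Retinal libraries held 11.6 to 23.6 M fragments, against 14.6 to 30.0 M per RPE/choroid library. Abca4 had 73.9 to 81.8 FPKM (fragments scaled to transcript length and library size) in knockout retina, 228 to 282 in wild type and 182 to 233 in knock-in. RPE/choroid values were 25.6 to 26.5 FPKM in knockout, 35.4 to 59.5 in wild type and 36.6 to 42.5 in knock-in. Libraries are named by genotype and by the number (0 to 2) the tables give them. In retina, the summed FPKM of 8 lens genes was 5093 in knockout 1, 11982 in knockout 2 and 5755 in knock-in 0, and 26.1 to 552 in the other 6 libraries. In RPE/choroid, 6 rod genes summed to 1884 FPKM in wild type 2 and to 66.4 to 357 in the other libraries. Skeletal muscle markers summed to 3072 to 6342 FPKM in RPE/choroid, surface epithelium markers to 1310 to 2838 and fibroblast markers to 1861 to 2866, with none of their genes at 0. In retina the same lists summed to 3.22 to 5.55, 0.247 to 2.05 and 3.85 to 31.3 FPKM, with up to 2 genes of a list at 0.

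Most collagen genes were far higher in RPE/choroid than in retina. Collagen genes took 1.80% ± 0.308 (SD, n = 9) of all fragments in RPE/choroid, with a range of 1.24% to 2.14%. In retina they took 0.0659% ± 0.0250 (SD, n = 9), with a range of 0.0407% to 0.106%. In the fragment counts of wild-type libraries, 36 of 42 collagen genes tested were called higher in RPE/choroid and 4 lower (edgeR quasi-likelihood test, Benjamini-Hochberg adjusted p under 0.05). Of all genes tested in that comparison, 44% were called higher and 41.9% lower, 85.9% in all, so calls in either direction were common. The median log2 difference of the collagen genes was 4.34, against 0.04 over all genes. In knockout, 34 were called higher and 4 lower, beside 43.9% and 41.6% of all genes (85.5% together). In knock-in it was 31 and 5, beside 44.3% and 42.1% (86.4% together). Calls in the same direction in all 3 genotypes were made for 35 genes, 31 of them higher and 4 lower in RPE/choroid. By sign alone, 40 of the 42 had the same direction in all 3, the exceptions being Col7a1 and Col9a1. In these bulk samples, more cells of a type and more RNA per cell cannot be told apart.

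**Figure D1:**
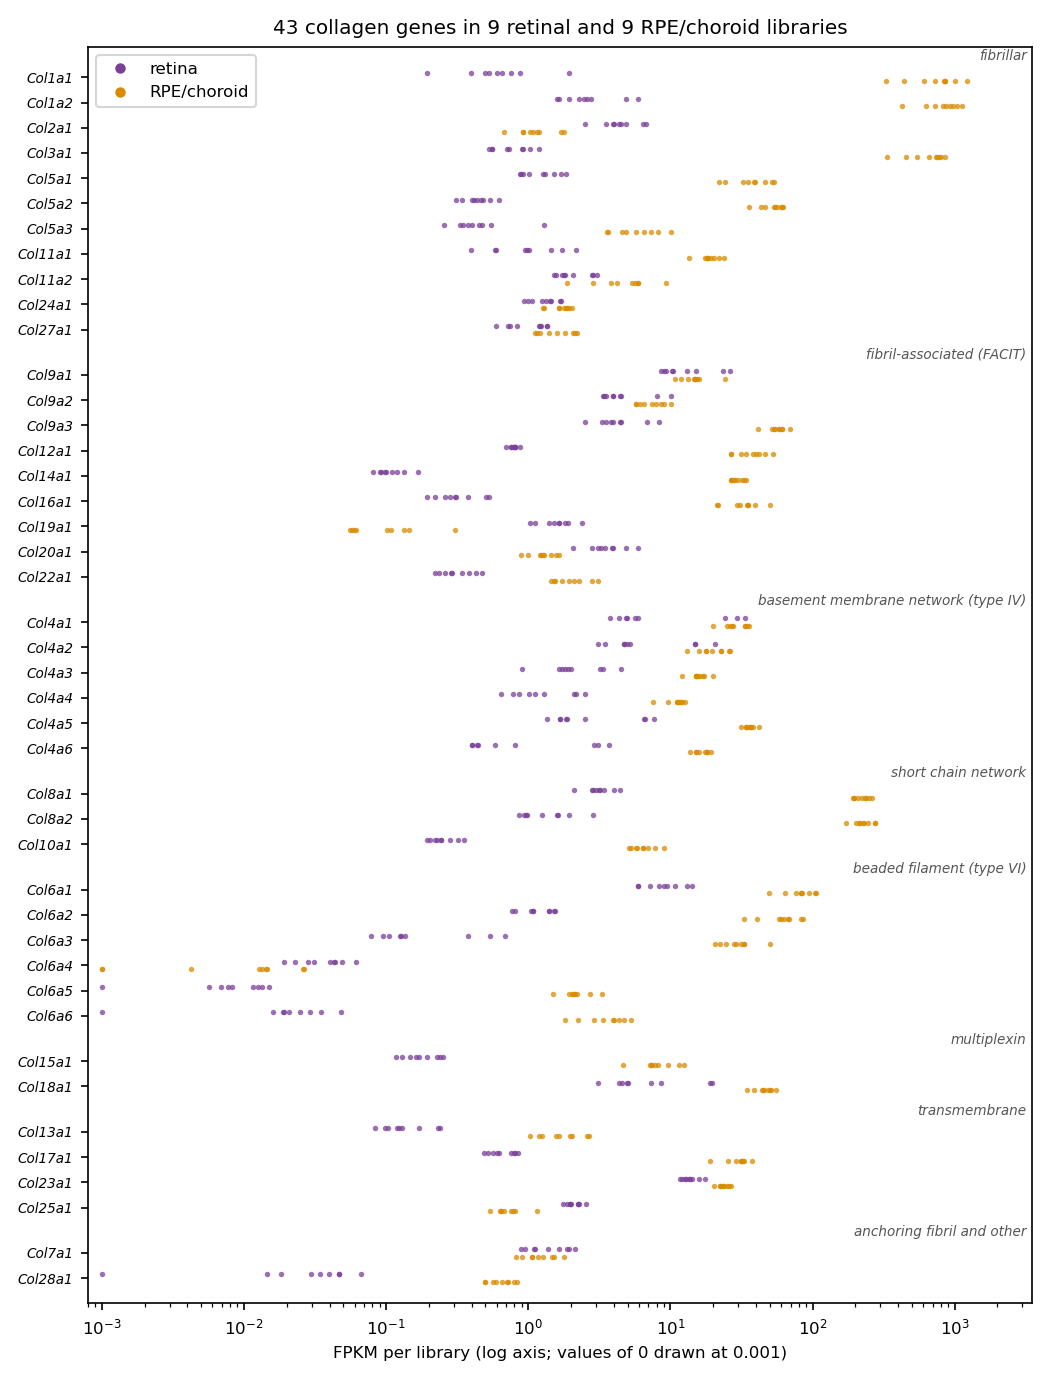
FPKM of each of the 43 collagen genes in 9 retinal (purple) and 9 RPE/choroid (orange) libraries on a log axis, 1 point a library, grouped by class, with values of 0 drawn at 0.001 and each tissue scaled on its own. Col1a1, Col1a2 and Col3a1 reach the highest levels, all in RPE/choroid, and for Col19a1 the retinal points (1.03 to 2.40) lie above those of RPE/choroid (0.0552 to 0.304).

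Fibrillar chains made up most of the difference. They took 66.7% of collagen fragments in RPE/choroid (55.3% to 71.0% over 9 libraries) and 15.1% in retina (9.31% to 18.4%). Of 11 tested in wild type, 10 were called higher in RPE/choroid and 1, Col2a1, lower. Col1a2, 1 of the chains of type I collagen, had 1128, 822 and 928 FPKM in wild-type RPE/choroid, 872, 973 and 629 in knockout and 1044, 732 and 423 in knock-in. In retina it had 1.65, 2.48 and 1.93 FPKM in wild type, 2.58, 4.85 and 2.28 in knockout and 5.90, 1.59 and 2.75 in the knock-in. FPKM were scaled separately in each tissue, so levels set across tissues are approximate, and the fitted fragment counts carry the comparison. Its log2 difference in wild type was 9.03 (SE 0.573, edgeR adjusted p = 4.1e-09), and no retinal library came near any RPE/choroid library. Col1a1, its partner chain, differed by 10.96 on the log2 scale (SE 0.676), or 1989-fold, from 12 to 149 fragments per retinal library. Col3a1, the type III chain found with type I in stroma and vessel walls, differed by 9.68 (SE 0.380). Col5a2 and Col5a1, type V chains that set fibril diameter, differed by 7.36 (SE 0.253) and 5.59 (SE 0.267). Fibroblast markers were likewise higher in RPE/choroid than in retina. Within RPE/choroid, knock-in 2 had the lowest Col1a2 value, 423 FPKM. Its fibroblast marker sum was the highest, 2866 FPKM, of which Dcn alone was 2253. By the mean log2 level of the same 6 markers it was instead the lowest of the 9 libraries, at 8.07, with wild type 0 highest at 8.30. The part of fibroblasts in the result was not tested.

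Type VI collagen, whose chains form beaded filaments around cells, followed the same direction. All 5 chains tested in wild type were called higher in RPE/choroid, with a median log2 difference of 8.21. Col6a1 was the type VI chain with the highest FPKM in both tissues. It had 106, 83.8 and 76.5 FPKM in wild-type RPE/choroid, 83.6, 94.3 and 63.6 in knockout and 103, 83.6 and 49.8 in knock-in. In retina it had 5.91, 10.8 and 9.02 in wild type, 7.18, 13.0 and 8.33 in knockout and 5.88, 14.1 and 9.52 in the knock-in. Its log2 difference of 3.58 (SE 0.337) was the smallest of the 5. Col6a5 and Col6a6 had at most 3 and 9 fragments in any retinal library and at least 315 and 310 in every RPE/choroid library. Col6a4 had at most 7 fragments in any library of either tissue and was not tested.

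Fibril-associated collagens split between the tissues. Of 9 tested in wild type, 6 were called higher in RPE/choroid, 2 (Col19a1 and Col20a1) lower, and Col9a1 was not called. Col14a1, which binds the surface of type I fibrils, had the smallest p of any collagen gene. Its log2 difference was 8.10 (SE 0.142, edgeR adjusted p = 2.2e-16), with 8 to 23 fragments per retinal library and 2807 to 6683 per RPE/choroid library. Col16a1 and Col12a1 differed by 7.05 (SE 0.217) and 5.86 (SE 0.215).

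Type IX, a collagen of cartilage and vitreous built from the Col9a1, Col9a2 and Col9a3 chains, differed chain by chain. Col9a3 had 57.9, 60.8 and 53.9 FPKM in wild-type RPE/choroid, 69.2, 51.7 and 41.1 in knockout and 61.3, 54.9 and 58.0 in knock-in. In retina it had 3.31, 3.93 and 2.51 in wild type, 3.50, 6.82 and 3.85 in knockout and 8.32, 4.39 and 4.52 in the knock-in. Col9a1 had 9.02, 10.4 and 10.3 FPKM in wild-type retina, 8.63, 26.1 and 13.0 in knockout and 23.5, 9.34 and 15.1 in knock-in. Its RPE/choroid values were 14.9, 11.9 and 24.3 in wild type, 13.2, 14.7 and 10.7 in knockout and 14.9, 15.3 and 16.0 in the knock-in. Col9a3 was separated between the tissues in every library, while Col9a1 overlapped. The log2 difference in wild type was 4.37 (SE 0.272) for Col9a3, 1.15 (SE 0.333) for Col9a2 and 0.90 (SE 0.408, edgeR adjusted p = 0.0546) for Col9a1.

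The short chain collagens Col8a1 and Col8a2 were, after the type I and type III chains, the collagen genes with the highest median FPKM in RPE/choroid. Col8a1 had 194, 224 and 238 FPKM in wild-type RPE/choroid, 249, 209 and 235 in knockout and 191, 194 and 261 in knock-in. Col8a2 had 274, 227 and 216 in wild type, 274, 231 and 171 in knockout and 246, 212 and 202 in the knock-in. In these 9 libraries the genotypes overlapped for both genes. In retina Col8a1 had 2.79, 2.11 and 3.43 FPKM in wild type, 4.43, 2.83 and 2.99 in knockout and 3.20, 4.03 and 3.16 in the knock-in. The log2 difference between the tissues in wild type was 8.12 (SE 0.218, edgeR adjusted p = 2.6e-14) for Col8a2, or 278-fold. For Col8a1 it was 6.26 (SE 0.224, adjusted p = 1.1e-12), or 76.4-fold. The remaining short chain gene, Col10a1, known from growth plate cartilage, had 5.13 to 9.02 FPKM in RPE/choroid and 0.195 to 0.353 in retina. Its log2 difference was 4.61 (SE 0.200). RPE markers summed to 6612 to 11335 FPKM in RPE/choroid. Markers of fibroblasts and of surface epithelium were present as well, at the sums given above. Which cells of the dissected tissue made the Col8a1, Col8a2 and Col10a1 transcripts was not tested.

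All 6 type IV genes were called higher in wild-type RPE/choroid, with a median log2 difference of 3.57, and 4 of the 6 in either mutant. Col4a5 had the highest mean FPKM of the 6 in RPE/choroid. It had 34.2, 33.9 and 36.4 FPKM in wild type, 36.5, 34.6 and 31.3 in knockout and 36.9, 38.2 and 42.3 in the knock-in. Its log2 difference in wild type was 4.45 (SE 0.578), and that of Col4a6, its neighbour on chromosome X, was 5.17 (SE 0.781). Col4a1 and Col4a2, the most widespread type IV chains, had the smallest differences of the 6, 2.84 (SE 0.748) and 2.49 (SE 0.584). These were the type IV genes not called in knockout and knock-in, where Col4a1 differed by 0.74 (edgeR adjusted p = 0.330) and 1.08 (adjusted p = 0.163). The 3 retinal libraries highest in lens genes are also those highest in Col4a1. Leaving them out keeps 1 knockout and 2 knock-in retinal libraries and had to raise the difference, since they hold the high retinal Col4a1 values. The Col4a1 difference was then 2.66 in knockout and 2.57 in knock-in.

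Transmembrane collagens were mixed as well, with 3 of 4 called higher in RPE/choroid in wild type and 1, Col25a1, lower. Col23a1 was the collagen gene with the highest median FPKM in retina. It had 12.7, 14.3 and 11.6 FPKM in wild-type retina, 12.1, 17.5 and 13.4 in knockout and 16.0, 12.9 and 13.7 in knock-in. RPE/choroid libraries had 23.5, 20.3 and 22.2 in wild type, 26.0, 26.8 and 24.9 in knockout and 23.8, 22.3 and 23.2 in the knock-in. Its groups stood apart by tissue with a log2 difference of 0.92 (SE 0.113, edgeR adjusted p = 1.1e-06). Col17a1, a hemidesmosome component of surface epithelium, had 29.0, 31.7 and 19.1 FPKM in wild-type RPE/choroid, 37.7, 31.6 and 31.2 in knockout and 32.5, 32.8 and 25.3 in knock-in. Retinal libraries had 0.485 to 0.850, and the log2 difference was 5.40 (SE 0.202). The lowest Col17a1 value in RPE/choroid was in wild type 2, where the surface epithelium marker sum was also lowest, at 1310 FPKM. Krt5, Krt14, Krt15 and Trp63 were lowest in that library, while Krt12 was highest there, at 260 FPKM. The part of surface epithelium in the Col17a1 values was not tested.

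Only 4 collagen genes were called lower in RPE/choroid than in retina in every genotype: Col19a1, Col25a1, Col20a1 and Col2a1. Col19a1 had 1.53, 1.65 and 1.91 FPKM in wild-type retina, 1.82, 1.65 and 2.40 in knockout and 1.03, 1.12 and 1.39 in knock-in. In RPE/choroid it had 0.0614, 0.102 and 0.304 in wild type, 0.0592, 0.0575 and 0.146 in knockout and 0.109, 0.0552 and 0.134 in the knock-in. Every retinal library was above every RPE/choroid library, where 9 to 46 fragments were counted against 235 to 450 in retina. The log2 difference in wild type was -3.73 (SE 0.297, edgeR adjusted p = 5.2e-09), or 13.3-fold lower in RPE/choroid. The highest RPE/choroid value, 0.304, was in wild type 2, the library highest in rod genes. Leaving out this library had to widen the difference, as it held the highest value. The log2 difference was then -4.34 (SE 0.244, edgeR adjusted p = 1.0e-11), and the part of rod RNA was not tested. By median FPKM, Col19a1 ranked 17 of the 43 in retina and 42 in RPE/choroid.

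Col25a1, a transmembrane collagen of neurons, differed by -1.45 (SE 0.145) on the log2 scale in wild type. Its retinal FPKM of 1.75 to 2.55 did not overlap its RPE/choroid FPKM of 0.535 to 1.15. Col20a1 differed by -1.22 (SE 0.192). Col2a1, the fibrillar chain of cartilage and vitreous, had 3.54, 4.32 and 2.50 FPKM in wild-type retina, 4.85, 6.73 and 3.92 in knockout and 6.40, 4.48 and 3.99 in knock-in. In RPE/choroid it had 1.08, 1.03 and 1.70 in wild type, 1.80, 1.18 and 0.913 in knockout and 1.15, 0.918 and 0.677 in the knock-in. The tissues did not overlap, and the log2 difference in wild type was -0.999 (SE 0.258, edgeR adjusted p = 0.00196). Chondrocyte markers summed to 45.7 to 63.2 FPKM in RPE/choroid and to 1.22 to 1.97 in retina, with at most 3 of the 6 at 0 in a retinal library. The RPE/choroid sum was mostly Chad and Matn3, with Comp. Acan and Matn1 were near 0 in both tissues, and Hapln1 was higher in every retinal library (0.898 to 1.29) than in any RPE/choroid library (0.241 to 0.626).

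Col7a1, the anchoring fibril chain, had the smallest difference between the tissues in wild type, while in knockout and knock-in Col9a1 had the smallest, at -0.19 and 0.02. It had 1.38, 1.94 and 0.954 FPKM in wild-type retina, 1.12, 1.65 and 0.894 in knockout and 1.88, 2.13 and 1.10 in knock-in. Its RPE/choroid values were 1.47, 1.17 and 0.902 in wild type, 1.78, 1.26 and 1.06 in knockout and 1.52, 1.06 and 0.814 in the knock-in. The tissues overlapped in all genotypes. Its log2 difference was 0.05 (edgeR adjusted p = 0.766) in wild type, 0.41 (adjusted p = 0.0262) in knockout and -0.40 (adjusted p = 0.0283) in the knock-in, and whether the latter values differ was not tested. The knockout call was lost without any 1 of knockout retina 0, knockout retina 2, knockout RPE/choroid 0 or knockout RPE/choroid 2. The knock-in call was lost without knock-in retina 0 or 1 or knock-in RPE/choroid 1 or 2. Across the settings without 1 of these libraries the value ran from 0.27 to 0.39 in knockout and from -0.39 to -0.28 in knock-in.

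The remaining members follow by class. Among fibrillar chains, the wild-type log2 difference was 4.91 (SE 0.441) for Col11a1, 4.31 (SE 0.408) for Col5a3 and 1.65 (SE 0.295) for Col11a2. Col27a1 and Col24a1 were close to the threshold, at 0.73 (SE 0.322, edgeR adjusted p = 0.0468) and 0.56 (SE 0.208, adjusted p = 0.0186). Neither was called in knock-in, and Col24a1 was not called in knockout. The type IV chains Col4a4 and Col4a3, which pair in specialised basement membranes such as that of the kidney glomerulus, differed by 3.83 (SE 0.345) and 3.31 (SE 0.398). Col6a3 and Col6a2 of type VI differed by 8.51 (SE 0.706) and 6.29 (SE 0.247). Col22a1, a fibril-associated collagen of muscle-tendon junctions, differed by 2.56 (SE 0.237), and skeletal muscle markers stood in RPE/choroid at the sums given above. Col13a1, a transmembrane collagen of the neuromuscular junction, differed by 4.24 (SE 0.300), from 3 to 13 retinal fragments a library. Col15a1, the other multiplexin, differed by 5.91 (SE 0.280). Col28a1, known from peripheral nerve, differed by 3.98 (SE 0.440), from at most 5 retinal fragments a library, and Schwann cell markers summed to 72.4 to 183 FPKM in RPE/choroid and 7.70 to 15.7 in retina. In each of these genes the higher tissue was RPE/choroid.

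Within a library, the ratio of FPKM between chains of 1 collagen type does not depend on how the tissues were scaled, and these ratios are given as a description. Type I chains in RPE/choroid were close to each other, with a Col1a1 to Col1a2 ratio of 0.698 to 1.07 (median 0.889, n = 9). In retina the ratio was 0.0848 to 0.339 (median 0.243). The type VIII ratio of Col8a1 to Col8a2 was 0.709 to 1.37 (median 0.916) in RPE/choroid and 1.47 to 3.52 (median 2.47) in retina, so Col8a1 was the more abundant chain in every retinal library. Type VI showed a larger contrast, with a Col6a1 to Col6a2 ratio of 1.22 to 1.55 (median 1.32) in RPE/choroid and 4.21 to 10.4 (median 8.33) in retina. The order of the type XI chains turned around by the median, since Col11a1 to Col11a2 was 1.99 to 7.25 (median 4.21) in RPE/choroid and 0.230 to 1.21 (median 0.388) in retina. Type V chains turned the other way, with a Col5a1 to Col5a2 ratio of 0.556 to 0.880 (median 0.701) in RPE/choroid and 1.82 to 4.63 (median 2.74) in retina. Col9a2 and Col9a3 were near parity in retina, at 0.973 to 1.48 (median 1.03), while in RPE/choroid the ratio was 0.105 to 0.174 (median 0.140). Type IV pairs moved least. Col4a1 to Col4a2 had a median of 1.23 in retina and 1.49 in RPE/choroid, Col4a3 to Col4a4 1.70 and 1.42, and Col4a5 to Col4a6 3.17 and 2.17. These 3 pairs are the close neighbours named above.

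The make-up of the collagen fragments therefore differed. In retina, type IV took 28.8% (17.5% to 52.2% over 9 libraries), fibril-associated collagens 21.2%, transmembrane collagens 15.1%, type VI 7.52%, multiplexins 6.03% and short chain collagens 4.09%. In RPE/choroid the same classes took 5.63%, 6.57%, 1.84%, 5.40%, 1.73% and 12.0%. The retinal type IV share was 36.5% in knockout 1, 52.2% in knockout 2 and 45.3% in knock-in 0, the libraries highest in lens genes. In wild-type retina it was 23.5%, 20.8% and 20.1%, below the 23.7%, 22.7% and 23.4% of fibril-associated collagens. Fibril-associated collagens took more than type IV in 5 of the 9 retinal libraries.

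Col18a1, the multiplexin with the highest FPKM in both tissues, differed between them in level and in transcript. It had 4.56, 4.32 and 3.11 FPKM in wild-type retina, 4.99, 19.7 and 7.36 in knockout and 19.1, 4.92 and 8.55 in knock-in. In RPE/choroid it had 45.6, 44.6 and 44.2 in wild type, 55.6, 50.8 and 34.4 in knockout and 50.2, 48.4 and 38.8 in the knock-in. The log2 difference in wild type was 3.82 (SE 0.514). The deposited transcript tables split the gene into a transcript of 5044 bases and another of 5628 bases with its own start. The shorter transcript held 82.0%, 90.3% and 86.0% of the gene's FPKM in wild-type retina, 69.3%, 66.1% and 73.2% in knockout and 67.1%, 73.6% and 73.5% in knock-in. In RPE/choroid it held 32.1%, 35.8% and 37.0% in wild type, 31.7%, 32.7% and 29.7% in knockout and 33.5%, 32.8% and 30.6% in the knock-in. Every retinal library was far above every RPE/choroid library.

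The mean share was 75.7% ± 8.54 (SD, n = 9) in retina and 32.9% ± 2.33 (SD, n = 9) in RPE/choroid. The difference of -42.8 percentage points had an exact permutation p of 4.11e-05, the smallest that 9 against 9 can give, and a Benjamini-Hochberg adjusted p of 1.71e-04 over the 2677 genes tested. Of those genes, 48.4% were called, beside 2 of the 4 collagen genes tested. The other was Col25a1, whose 2637-base transcript held 62.0% in retina and 41.2% in RPE/choroid (exact permutation adjusted p = 0.00128). With at least 50 fragments required in every library Col25a1 dropped out of the test, and in wild-type libraries alone, 3 against 3, no gene could be called. Within retina, the shorter Col18a1 transcript was lower than wild type in all 6 mutant libraries, by 16.6 percentage points in the mean of knockout and 14.7 in knock-in. The exact permutation p of each was 0.1, the smallest that 3 against 3 allows. In the same 6 libraries 4 of the 6 RPE markers (Rpe65, Rgr, Lrat and Ttr) were above all wild-type libraries, Rlbp1 was below all of them and Best1 overlapped. The part of RPE RNA in the result was not tested.

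**Figure D2:**
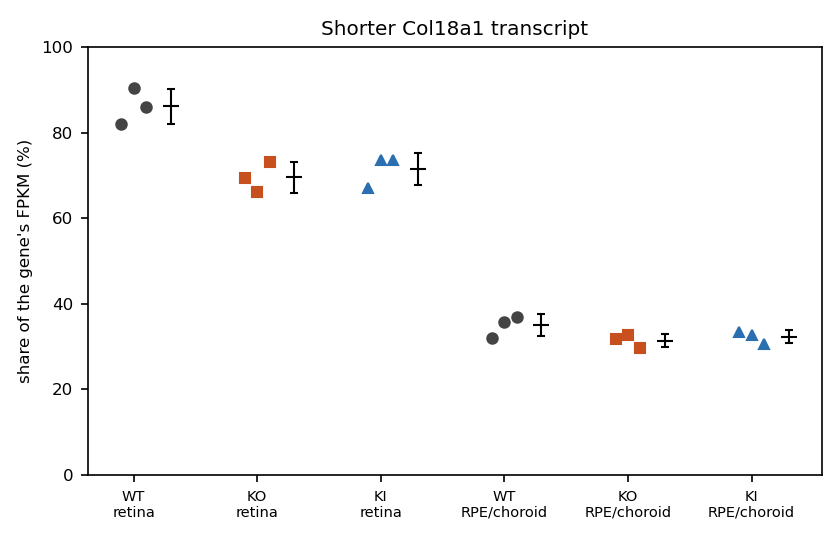
Share of Col18a1 FPKM held by the 5044-base transcript, in percent, in each library by tissue and genotype (WT, wild type; KO, knockout; KI, knock-in), with the mean and SD of each group of 3. All 9 retinal libraries lie between 66.1% and 90.3% and all 9 RPE/choroid libraries between 29.7% and 37.0%.

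The genotype comparisons in retina called few collagen genes. In knockout against wild type, 1 of 38 collagen genes tested, Col8a2, was called higher and none lower, beside 0.98% of all genes called (0.483% higher, 0.497% lower). In knock-in against wild type, 1, Col19a1, was called lower, beside 0.265% of all genes (0.143% higher, 0.122% lower). In knock-in against knockout Col19a1 was again the gene called, lower, beside 1.26% (0.68% higher, 0.578% lower). The comparisons share libraries, so they do not stand for separate evidence. Collagen genes took 0.0466% ± 0.0051 (SD, n = 3) of fragments in wild-type retina, 0.0777% ± 0.0281 in knockout and 0.0733% ± 0.0288 in knock-in, so the mutant groups spread more widely than wild type. By sign alone, 29 of 38 had a positive log2 difference in knockout, with a median of 0.19, and 32 of 38 in knock-in, with a median of 0.33. Over all genes the medians were -0.0032 and 0.00065. Col13a1, Col28a1, Col6a4, Col6a5 and Col6a6 had too few retinal fragments to be tested.

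Col8a2 had 0.966, 0.855 and 0.976 FPKM in wild-type retina, 2.85, 1.93 and 1.25 in knockout and 1.62, 1.59 and 0.931 in knock-in. All knockout libraries were above all wild-type libraries, while knock-in 2 was within the wild-type range. The counts behind these values were 41 to 61 fragments in wild type and 79 to 191 in knockout. In knockout it was 2.03-fold higher, a log2 difference of 1.02 (SE 0.218, edgeR adjusted p = 0.0428). The knock-in difference from wild type was 0.52 (adjusted p = 0.533). The type VIII partner chain Col8a1 differed by 0.28 in knockout without being called, and all 3 short chain genes had a positive sign.

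Some markers of the RPE were also higher in knockout retina. Rpe65, the isomerase of the RPE visual cycle, had 2.76, 2.65 and 3.56 FPKM in wild-type retina, 10.7, 6.44 and 8.27 in knockout and 5.04, 5.01 and 6.60 in knock-in. In knockout it was higher by 1.48 on the log2 scale (edgeR adjusted p = 0.00222). Rgr, an opsin of RPE and Mueller glia, had 6.06, 4.83 and 5.97 in wild type, 21.2, 11.9 and 13.5 in knockout and 9.77, 11.9 and 12.4 in the knock-in. Knockout 0 was the highest library for Rpe65, Rgr and Col8a2 alike, but the order of other libraries differed. Knockout 2 was above knockout 1 in Rpe65 and Rgr and below it in Col8a2. Knock-in 2 was the highest knock-in library for Rpe65 and Rgr, while its Col8a2 value was within the wild-type range. Of the 6 RPE markers, 3 (Rpe65, Rgr and Lrat) were called higher in knockout, and none was at 0 in any retinal library. The sum of all 6 was 237 to 324 FPKM over the 9 retinal libraries, most of it Rlbp1, which Mueller glia also express. Rlbp1 had 257, 255 and 248 FPKM in wild type and 226, 232 and 182 in knockout, a log2 difference of -0.27 that was not called (adjusted p = 0.101), and Best1 overlapped. Melanocyte markers, 5 pigment genes that RPE also expresses, summed to 16.7, 10.3 and 21.1 FPKM in wild-type retina, 24.3, 30.9 and 24.7 in knockout and 19.1 to 21.3 in knock-in. Knockout was above wild type in each library for their sum and for Dct, Tyrp1 and Tyr, of which none was called. The part of pigment cell RNA in the result was not tested. With a term for RPE markers in the edgeR fit, the Col8a2 difference was 0.32 (SE 0.331, adjusted p = 0.790). That term, the mean log2 level of the 6 markers, was 3.29 to 3.49 in wild type and 3.86 to 4.45 in knockout. It followed genotype, so this fit cannot tell RPE markers and genotype apart. With 1 of 6 libraries left out the Col8a2 difference ran from 0.83 to 1.32, and the call held only without wild type 2. It also held with DESeq2 (adjusted p = 0.00383).

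**Figure D3:**
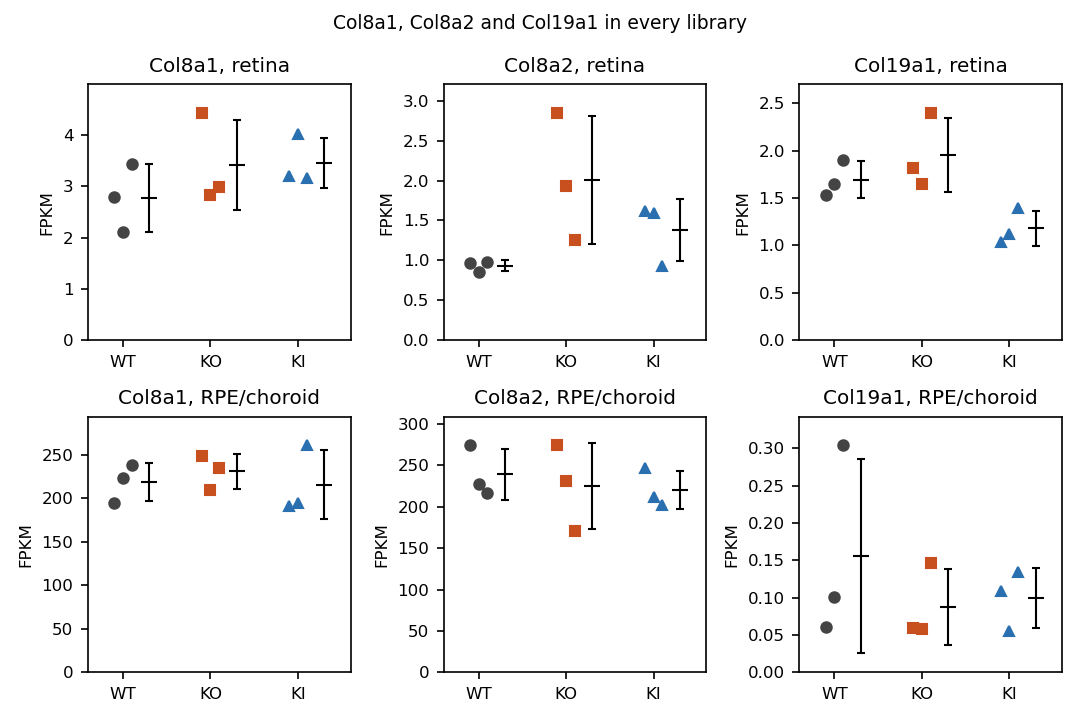
FPKM of Col8a1, Col8a2 and Col19a1 in each library by genotype (WT, KO and KI for wild type, knockout and knock-in), retina and RPE/choroid in separate panels with their own axes from 0, with the group mean and SD (n = 3). Retinal Col8a2 is highest in knockout 0 at 2.85, and retinal Col19a1 is lowest in the 3 knock-in libraries, from 1.03 to 1.39.

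Col19a1, with the retinal values given above, was below every wild-type and knockout library in all 3 knock-in libraries. Knock-in retina was 1.47-fold lower than wild type, a log2 difference of -0.55 (SE 0.101, edgeR adjusted p = 0.0360). It was 1.65-fold lower than knockout, a log2 difference of -0.73 (SE 0.0995, adjusted p = 0.00193), while knockout and wild type differed by 0.17 (adjusted p = 0.50). Against knockout the call held in every edgeR and DESeq2 setting, with -0.81 to -0.65 when 1 library was left out, and was lost with limma on log2 FPKM (adjusted p = 0.284 and 0.282 with pseudocounts of 1 and 0.1). Against wild type the value stayed between -0.62 and -0.49 with 1 library left out, and the call held only without knock-in 2. It was lost with limma on log2 FPKM (adjusted p = 1.00 with either pseudocount), and with a term for sex (-0.57, adjusted p = 0.116), RPE markers (-0.55, adjusted p = 0.387), lens markers (-0.52, adjusted p = 0.139) or fibroblast markers (-0.54, adjusted p = 0.0732). By Xist and Ddx3y, 3 of 3 knock-in, 2 of 3 knockout and 1 of 3 wild-type retinal libraries read as female, so sex was not balanced between the groups. Its neighbour Col9a1 had a log2 difference of 0.71 in the same comparison and was not called. In RPE/choroid, at 9 to 46 fragments a library, Col19a1 was called in no genotype comparison.

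The type IV genes had large positive differences in mutant retina, and none was called. Col4a1 had 4.87, 5.92 and 3.78 FPKM in wild-type retina, 5.61, 24.3 and 29.5 in knockout and 33.7, 4.93 and 4.32 in knock-in. Col4a5 had 1.35, 1.68 and 1.86 in wild type, 1.85, 6.51 and 6.68 in knockout and 7.68, 1.68 and 2.53 in the knock-in. The high values were in knockout 1, knockout 2 and knock-in 0, and the remaining mutant libraries were at or near the wild-type range. Those are also the 3 libraries highest in lens genes, and the part of lens RNA in the type IV values was not tested. In knockout against wild type all 6 type IV differences were positive, with a median of 1.57 on the log2 scale, from 0.80 for Col4a3 to 2.40 for Col4a6. In knock-in the median was 1.24. Since these 3 libraries hold the high type IV values, leaving them out had to lower the differences, and it leaves only knockout 0 in the knockout group and 2 libraries in the knock-in group. The knockout differences were then 0.14 for Col4a1, 0.0055 for Col4a2, 0.041 for Col4a3, 0.50 for Col4a4, 0.17 for Col4a5 and 0.41 for Col4a6. The knock-in differences were 0.038, 0.097, -0.45, 0.087, 0.41 and 0.63 in the same order.

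Col18a1 and Col9a1 were high in some of the same libraries. Within each mutant group the libraries highest in lens genes were above the others for both genes. Leaving them out therefore had to lower the differences. Without these 3 libraries, 1 knockout and 2 knock-in libraries were left. The knockout difference of Col18a1 then went from 1.47 to 0.22 and its knock-in difference from 1.52 to 0.97. That of Col9a1 went from 0.69 to -0.24 in knockout and from 0.71 to 0.37 in knock-in. Fibroblast markers summed to 31.3 FPKM in knockout 1, 15.5 in knockout 2 and 24.8 in knock-in 0, and to 3.85 to 13.2 in the other 6 retinal libraries. Most of each of the first 3 sums was 1 gene of the 6, Fbln1, at 26.0, 9.70 and 19.7 FPKM. Without Fbln1 the list summed to 5.34, 5.81 and 5.14 in these libraries and to 5.29 in wild type 2, and Dcn and Lum were highest in wild type 2. Col1a2 was highest in knockout 1 and knock-in 0. The part of fibroblast RNA in these values was not tested.

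**Figure D4:**
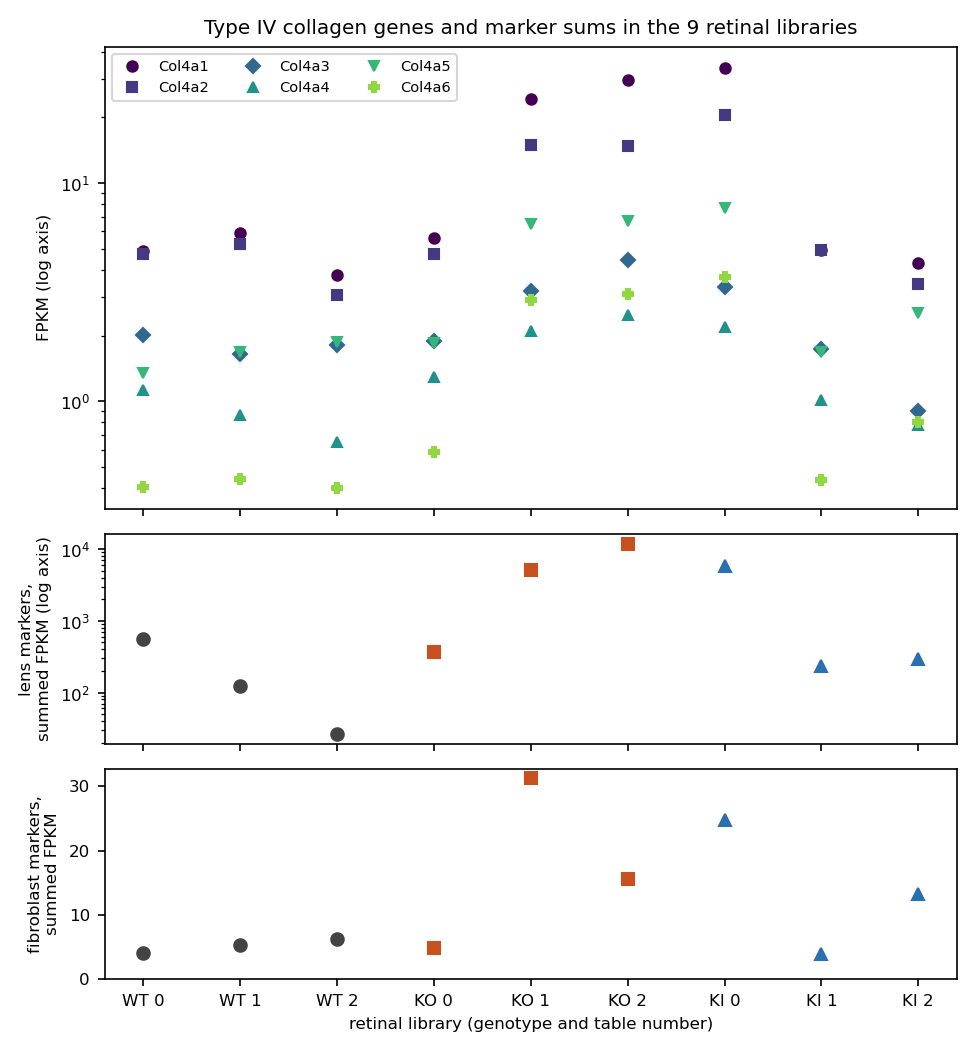
Retinal FPKM of the 6 type IV genes in each of 9 libraries (top, log axis), above the summed FPKM of lens markers (middle, log axis) and fibroblast markers (bottom) in the same libraries. Col4a1 is at 24.3 and 29.5 in knockout 1 and 2 and at 33.7 in knock-in 0, the libraries with lens sums from 5093 to 11982.

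Other collagen genes in retina came near the threshold without passing it. Col3a1 had 0.734, 1.03 and 1.19 FPKM in wild type, 0.557, 0.529 and 0.560 in knockout and 0.917, 0.713 and 0.906 in the knock-in. The knockout libraries lay below all others, with a log2 difference from wild type of -0.86 (SE 0.214, edgeR adjusted p = 0.0839, DESeq2 adjusted p = 0.0354). Col2a1 differed from wild type by 0.63 in knockout (edgeR adjusted p = 0.113) and 0.61 in knock-in (adjusted p = 0.225), with DESeq2 adjusted p = 0.0118 and 0.0316. Col20a1 differed by 0.63 in knock-in (edgeR adjusted p = 0.208, DESeq2 adjusted p = 0.0398).

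In RPE/choroid no collagen gene was called in any of the 3 genotype comparisons, of 42 tested by edgeR. Of all genes, 0.472% were called in knockout against wild type, 0.0647% in knock-in against wild type and 0.453% in knock-in against knockout. At an unadjusted p under 0.05 the counts of collagen genes were 11, 8 and 4, and DESeq2 called 3, 1 and 0. No share of all genes stands beside these counts, so they are not read as particular to collagen genes. The collagen share of fragments was 2.05% ± 0.137 (SD, n = 3) in wild type, 1.76% ± 0.253 in knockout and 1.59% ± 0.363 for knock-in, without a test of the share. Signs leaned negative, with 16 of 42 positive in knockout (median log2 difference -0.13) and 10 of 42 in knock-in (median -0.15), against medians of -0.015 and -0.0038 over all genes. Among fibrillar chains 2 of 11 were positive in knockout and none of 11 in knock-in, and of the type VI chains none of 5 in either. All 4 transmembrane collagens were positive in both.

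Col4a6 had the smallest p in both comparisons with wild type. It had 15.0, 15.0 and 13.7 FPKM in wild-type RPE/choroid, 18.1, 18.2 and 15.8 in knockout and 18.0, 17.5 and 19.5 in knock-in. Every mutant library was above every wild-type library, with log2 differences of 0.25 (SE 0.0692, edgeR adjusted p = 0.141) and 0.32 (SE 0.0693, adjusted p = 0.473). DESeq2 called it in both (adjusted p = 0.0366 and 0.0192). The DESeq2 calls in knockout also held Col14a1 at -0.28 and Col16a1 at -0.39. Col1a1 ranged from 330 FPKM in knock-in 2 to 1212 in wild type 0, and its knock-in difference was -0.68 (edgeR adjusted p = 0.837). Within knockout it ranged from 440 to 850, so the spread inside a genotype was of the size of the difference between genotypes. For Col8a1 and Col8a2 the knockout differences in RPE/choroid were 0.10 and -0.13, and the knock-in differences -0.02 and -0.17.

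**Figure D5:**
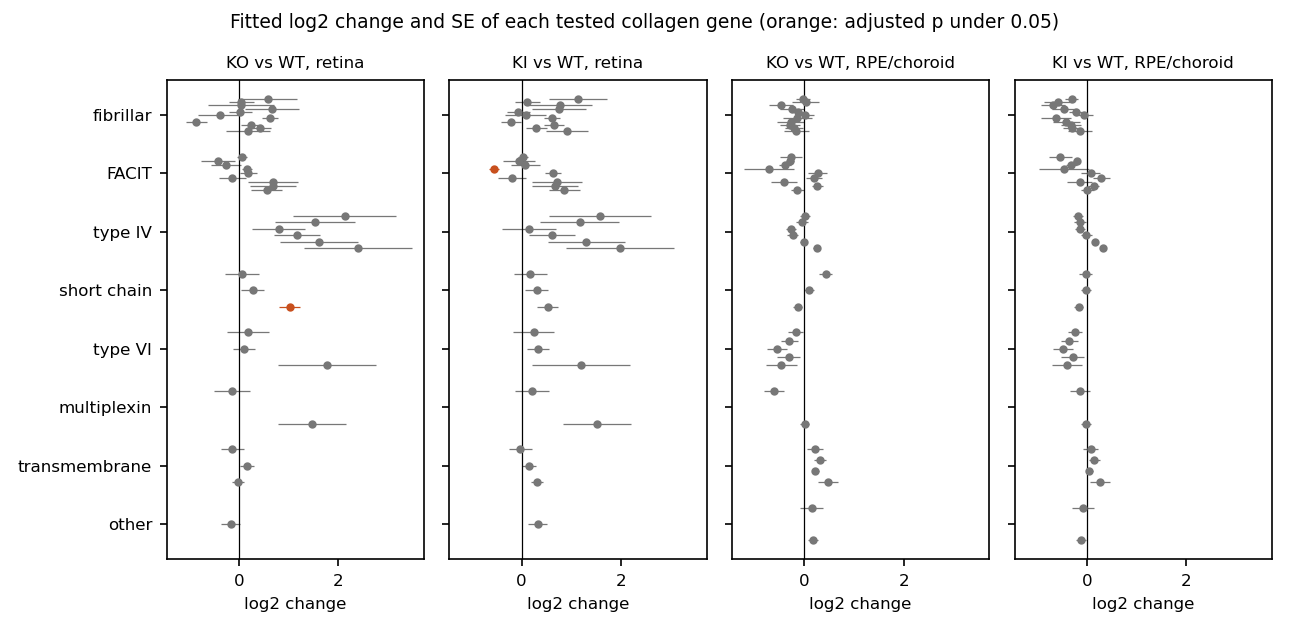
Fitted log2 difference from wild type of each collagen gene tested, with bars of 1 SE, by class, in 4 panels on a common axis: knockout and knock-in retina, then knockout and knock-in RPE/choroid. Orange points are called. The called values are Col8a2 in knockout retina at 1.02 and Col19a1 in knock-in retina at -0.55, and the wide bars in retina are type IV genes, Col18a1 and Col6a3.

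The difference between the tissues in genotype effect was tested on all 18 libraries. No collagen gene of 42 was called by edgeR for the knockout effect (0.136% of all genes called) or the knock-in effect (0.0555%). At an unadjusted p under 0.05 there were 6 and 8, and DESeq2 called 2 and 0, again without a share of all genes beside them. The smallest p for the knockout effect was that of Col8a2, which differed by -1.14 (SE 0.242, edgeR adjusted p = 0.0814). It was called by DESeq2 at -1.16. Without the 3 retinal libraries highest in lens genes it was -1.50, a value that rests on knockout 0, the library highest in Col8a2, as the only knockout retina. It was also called without wild-type retina 2 at -1.43 and without wild-type RPE/choroid 2 at -1.15. The further DESeq2 call was Col4a4 at -1.41, with an edgeR adjusted p of 0.231. For the knock-in effect the smallest p was that of Col2a1, at -1.24 (adjusted p = 0.627).

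The authors' deposited table of comparisons gives more collagen genes in retina, where 14 of 30 tested collagen genes had a q-value under 0.05 in knockout against wild type, 17 of 31 in knock-in against wild type and 4 of 31 between the mutants. In RPE/choroid the authors' deposited table has 2 of 41 in each comparison. The share of all genes under that q-value is not given here, so these counts are not read as particular to collagen genes. All 6 type IV genes are among the 14, such as Col4a1 at 19.8 against 4.86 FPKM in the authors' deposited table. The high type IV values were in the libraries highest in lens genes, as given above. By the same authors' deposited table Col8a2 was at 2.01 in knockout against 0.932 in wild type (q = 0.00293), and Col19a1 at 1.18 in knock-in against 1.69 (q = 0.0124). The RPE/choroid genes in the authors' deposited table were Col15a1 and Col6a3 in knockout, both lower, and Col12a1 and Col6a3 in knock-in, both lower. Between the mutants they were Col11a2, higher in knockout, and Col15a1, lower in knockout.

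The genes that make, bind and break down collagen were followed as 3 lists. The breakdown list also holds protease inhibitors (Timp1, Timp2, Timp3, Timp4 and Reck). Of 36 synthesis and processing genes tested in wild type, 32 were called higher in RPE/choroid and 1 lower, with a median log2 difference of 2.40. Over all genes tested, 44% were called higher and 41.9% lower, with a median of 0.04. Of 9 collagen receptors 8 were called higher (median 2.76), and of 15 genes of the breakdown list 14 higher and 1 lower (median 3.73). As that list mixes proteases with inhibitors, its count does not give the rate of breakdown. Among synthesis genes the smallest p-values were those of Bmp1, which removes the C-terminal propeptide, at 2.68 (SE 0.0835), and Crtap, of the prolyl 3-hydroxylation complex, at 4.50 (SE 0.153). Leprel2, a prolyl 3-hydroxylase, was at 3.31 and Sparc, a collagen-binding matrix protein, at 3.85. Among receptors they were Itgb1, the shared integrin beta chain, at 2.76, Mrc2, which takes up collagen fragments, at 6.32, and the integrin chains Itga11 at 4.76 and Itga1 at 2.33. Of the breakdown list they were Reck at 2.61, Timp3 at 5.19, the membrane collagenase Mmp14 at 3.57 and Timp2 at 3.38. Of these, Reck, the RPE-rich Timp3 and Timp2 are protease inhibitors.

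Genotype moved few genes of these lists. In knockout retina 1 of 8 receptors, Ddr1, a collagen-binding receptor kinase, was called higher by 0.28 (SE 0.0545, edgeR adjusted p = 0.0288), beside 0.98% of all genes called. None of 32 synthesis genes passed, with Adamts2, an N-propeptidase, at 1.38 (adjusted p = 0.147) and Pcolce, an enhancer of propeptide removal, at 1.18 (adjusted p = 0.152). Nor did any of 11 genes of the breakdown list, with the inhibitor Timp3 at 0.47 (edgeR adjusted p = 0.236). In knock-in retina none of the 3 lists held a call, and Tmem38b, an endoplasmic reticulum ion channel needed for collagen secretion by bone cells, had the smallest p at 0.49 (adjusted p = 0.114). In knockout RPE/choroid 1 of 15 genes of the breakdown list was called, beside 0.472% of all genes. This was Pepd, the peptidase that frees proline from collagen fragments, lower by 0.37 on the log2 scale (-0.37, SE 0.0562, adjusted p = 0.0316). Pepd had 38.8 ± 4.44 FPKM (SD, n = 3) in wild type, 31.1 ± 3.50 in knockout and 42.1 ± 3.33 in the knock-in. It was higher in knock-in than in knockout by 0.42 (SE 0.0564, adjusted p = 0.0126). No receptor and no synthesis gene was called in RPE/choroid, where the smallest p for synthesis in knockout was that of Lepre1, a prolyl 3-hydroxylase, at -0.31 (adjusted p = 0.144).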

How the data were processed

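Libraries were stranded, from total RNA, read as 100 bp pairs. Per the submitters' processing notes, reads were handled with TopHat, Bowtie2 and Cufflinks on mm9. Their versions, the annotation and any use of the strand in counting are not stated in the labels or headers at hand. The deposited gene tables give expected counts (fragments before scaling) and FPKM per library, per the file headers. Fragments were rounded to whole numbers, as 98.5% of retinal and 98.4% of RPE/choroid values already were. The authors scaled FPKM separately in each tissue table. The authors' comparison tables give a q-value per gene. Deposited transcript tables give FPKM and length in bases.

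Fragments were tested with edgeR 4.0.16 (quasi-likelihood, robust, TMM, filterByExpr) in R 4.3.3, with the 9 libraries of a tissue in 1 fit and all 18 for tissue contrasts and for differences of genotype effects. P-values were adjusted over all genes tested (14699 in retina, 15454 in RPE/choroid, 16222 in both), and genes under 0.05 were called. Alternatives used DESeq2 1.42.0, limma 3.58.1, other scalings and filters, a block, terms for sex and markers, and libraries left out. Transcript shares were compared by an exact permutation test, two-sided, over libraries. On data simulated for the knockout comparison in retina (14699 genes), 89.6% of 2-fold and 64.2% of 1.5-fold changes were found. For the knockout comparison in RPE/choroid it was 83.6% and 43.3%. For the difference between the tissues in knockout effect it was 71.6% and 29.9%. The changed genes were drawn from those above a set mean fragment count, so these shares do not cover sparse genes. Members and lists were chosen with earlier results of these data known. Values in every library are given for Col8a1, Col8a2, Col19a1, members called between genotypes and the member of each class with the highest mean FPKM in a tissue. Other members named were chosen after their values were seen. From the 3 pathway lists, called genes (at most 4 per list and comparison) or else those with the smallest p are named.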

Additional observations from a re-analysis of the deposited data

Results flagged for a closer look

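Pepd, of the collagen breakdown list, differed between the tissues in its knockout effect: the log2 difference in RPE/choroid minus that in retina was -0.42 (SE 0.0736, edgeR adjusted p = 0.0321 in the fit of all 18 libraries). Its knockout difference was -0.37 in RPE/choroid and 0.07 in retina.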

How the results depend on the processing

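No collagen gene that was called in a genotype comparison turned its direction under any setting run. The count of collagen genes called in retina was 1 in each genotype comparison. For knockout against wild type it was 3 with DESeq2 (Col2a1, Col3a1, Col8a2) and 0 with limma on log2 FPKM with either pseudocount, with only the compared groups, and with a term for RPE or fibroblast markers. With a term for sex the gene called was Col3a1, not Col8a2. The RPE marker term was higher in every mutant than in every wild-type retinal library, so fits with it cannot tell it apart from genotype. For knock-in against wild type it was 3 with DESeq2 (Col19a1, Col20a1, Col2a1) and 0 with limma, with a term for sex, RPE, lens or fibroblast markers, and without the 3 lens-high libraries. For knock-in against knockout limma called 0. With 1 library left out the counts ran from 0 to 1 against wild type and stayed at 1 between the mutants. In RPE/choroid DESeq2 called 3 in knockout and 1 in knock-in, where edgeR called 0. The knockout effect difference between tissues gave 2 with DESeq2, 1 without the lens-high libraries (1 knockout retina left) and 0 to 1 with 1 library left out. The transcript test gave 1 with a minimum of 50 fragments and 0 in wild-type libraries only, each from fewer genes or libraries tested. Table numbers did not pair the libraries, since deviations of equally numbered libraries correlated from -0.50 to 0.24. With the table number as a replicate block the counts in retina were 0, 2 and 2, without Col8a2 (adjusted p = 0.0783), with Col20a1 beside Col19a1 against wild type, and with Col7a1 beside Col19a1 between the mutants. The marker term for fibroblasts and the settings without lens-high or rod-high libraries were added after seeing the data. Where not stated, the cause of a moved count was not tested. Retinal counts under 100 fragments, such as those of Col1a1 and Col8a2, limit precision.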
